A study of Mus musculus with 14 samples.

Results

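The genes described here encode subunits and assembly factors of the mitochondrial respiratory chain and the ATP synthase. They were selected by gene symbol: every probe whose symbol began with Nduf, Uqcr or Atp5, was Sdha to Sdhd or Cycs, or began with Cox followed by a number from 4 to 8 or from 10 to 19. The rule found 57 probes for 57 genes among the 10012 probes of the array, and used no measured value. They comprised 20 complex I subunits, 3 complex I assembly factors, 3 complex II subunits, 2 complex III subunits, cytochrome c, 15 complex IV subunits, 1 complex IV assembly factor and 12 ATP synthase subunits. Each gene had 1 probe, and all 57 passed the filter on low values, as did 9486 probes of the whole array.

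RNA came from macrophages elicited in the peritoneum by thioglycollate in female C57BL/6 mice of 6 weeks. The 7 groups of 2 samples each were untreated cells, cells given lipopolysaccharide (LPS, a ligand of the receptor TLR4), cells given poly(I:C) (a double-stranded RNA and ligand of TLR3), and cells given one of these ligands plus either the LXR (liver X receptor) agonist GW3965 or the PPARγ agonist GW7845. No group received an agonist alone, so each agonist was compared with its ligand alone. No source used here gives the doses or the length of treatment. The study states that the 2 replicates of a condition were biological, but not whether each came from 1 animal or a pool, so p-values measure the spread between these samples.

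The respiratory chain passes electrons from NADH (at complex I) and succinate (at complex II) through complex III and cytochrome c to complex IV, which reduces oxygen. Complexes I, III and IV pump protons across the inner mitochondrial membrane, and the ATP synthase uses that gradient to make ATP. Macrophages exposed to LPS are known to turn toward glycolysis, and their respiratory chain is also known as a source of reactive oxygen species and signals in inflammation.

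The 14 arrays fell into 2 sets by their 10th percentile of intensity, each with 1 array of every group. The labels name no batch, and set A holds replicate 1 of every group but GW7845 + LPS. A technical difference and a difference between biological replicates therefore cannot be told apart. In set A the array's 10th percentile of intensity lay between 0.137 and 0.271, and in set B between 0.0549 and 0.0833. Set A was itself uneven after each group's mean was removed. Its untreated, LPS, poly(I:C) and GW7845 + poly(I:C) arrays (part A1) then correlated with each other at 0.593 to 0.673. Its GW3965 + LPS, GW7845 + LPS and GW3965 + poly(I:C) arrays (part A2) did so at 0.472 to 0.540, and arrays of different parts at 0.356 to 0.468. Set means were not removed, so these values include what the set A arrays share against set B. The array median over the 57 members was 5.60 to 5.94 (log2 intensity) in part A1, 5.29 to 5.40 in part A2 and 5.01 to 5.27 in set B. Differences are therefore given for all arrays and within each set, and tests both without a block and with the array set as a block. Both LPS and poly(I:C) raised Tnf, by 7.44 and 7.65 (log2 difference; limma adjusted p = 1.72e-07 and 1.11e-07), and macrophage markers were present, 6 of 7 measured probes lying above their array's own 20th percentile on all 14 arrays. Of 7 measured probes for muscle and fat, tissues rich in mitochondria, 1 did so, and their summed intensity was 0.702 to 3.23 against 1141 to 2774 for the macrophage markers. Probes for other cells were dimmer than the macrophage sum but not absent: all 4 B cell probes, 2 of 5 for T and NK cells, 3 of 6 for neutrophils, 3 of 8 for eosinophils and mast cells, 1 of 2 erythroid and 4 of 6 for fibroblasts and mesothelium were above that percentile on all arrays. The neutrophil sum was 18.2 to 29.2 untreated, 36.3 to 49.1 with LPS and 30.9 to 52.5 with poly(I:C), with Elane and Mpo above the percentile on 4 and 1 arrays. It was 19.2 to 24.1 on the 4 GW3965 arrays and 36.0 to 61.0 on the 4 GW7845 arrays. The eosinophil and mast cell sum was 10.9 to 13.3 untreated, 14.4 to 16.7 with LPS and 15.7 to 19.7 with poly(I:C), and the T and NK cell sum was 3.44 to 4.13 untreated and 2.00 to 2.66 with poly(I:C). Their part in the members' differences was not tested.

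The windows before the start sites of Cycs, Ndufa6 and Ndufaf7 are shown because the results below turn on these 3 genes. Cycs and Ndufaf7 were called after both ligands with the array set as a block, and Ndufa6 had the lowest difference of the complex I subunits after LPS. Sequences are from RefSeq (GRCm38.p6), the 250 bases before the annotated start, read 5′ to 3′ on the gene's strand. Capitals mark GCATGCGC, the core of the element bound by nuclear respiratory factor 1 (NRF1), and TGACGTCA, the element bound by CREB and ATF factors. The positions are chr6:50566570-50566819 on the minus strand for Cycs, chr15:82354292-82354541 on the minus strand for Ndufa6 and chr17:78936885-78937134 on the plus strand for Ndufaf7.
Cycs: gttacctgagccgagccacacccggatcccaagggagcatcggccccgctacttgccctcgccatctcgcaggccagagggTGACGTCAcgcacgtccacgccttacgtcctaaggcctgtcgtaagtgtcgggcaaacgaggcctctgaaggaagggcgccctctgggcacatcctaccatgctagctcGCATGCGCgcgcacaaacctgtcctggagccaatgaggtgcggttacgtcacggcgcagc
Ndufa6: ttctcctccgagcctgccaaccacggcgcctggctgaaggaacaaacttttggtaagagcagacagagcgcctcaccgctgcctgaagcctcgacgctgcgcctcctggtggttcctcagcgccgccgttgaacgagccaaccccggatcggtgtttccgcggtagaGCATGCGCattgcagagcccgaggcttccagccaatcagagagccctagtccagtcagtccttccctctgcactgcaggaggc
Ndufaf7: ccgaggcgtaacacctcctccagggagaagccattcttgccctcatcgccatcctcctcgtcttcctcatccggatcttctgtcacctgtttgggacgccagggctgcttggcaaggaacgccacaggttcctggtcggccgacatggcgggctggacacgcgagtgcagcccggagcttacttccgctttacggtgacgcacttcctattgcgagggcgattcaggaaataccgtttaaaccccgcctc

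The Cycs window held 1 match to each of these motifs, the Ndufa6 window 1 match to GCATGCGC, and the Ndufaf7 window neither. Both strands were searched, and both motifs were chosen after the windows had been read. Among 54 windows of 49 member genes, GCATGCGC was in 8 windows (14.81%) against 2.256% of all 32851 windows in the table, and TGACGTCA in 5 (9.259%) against 1.546%. The full NRF1 core element, which contains GCATGCGC, was in 4 windows (7.407% against 0.7823%): those of Atp5g2, Atp5k, Cox6a1 and Ndufa11. The ETS element CCGGAAG, bound by GABP among others, was in 7 windows (12.96% against 6.907%), AAGGTCA, bound by the estrogen-related receptors, in 2 (3.704% against 4.079%), and AAGATGGCG, bound by YY1, in 1 (1.852% against 0.6058%). A match describes these letters and is not evidence of binding.

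The members that stood out after LPS alone were cytochrome c, above untreated cells, and the complex I assembly factor Ndufaf7, below them. Both passed with the array set as a block and neither without it. Most other members lay slightly below untreated cells without passing the test. No member was called without a block (limma, adjusted p under 0.05), where 7.90% of all probes were, and 2 of 57 had an unadjusted p under 0.05 (all probes 17.5%), or 6 with the array set as a block (all probes 29.5%). The fit with the array set as a block called 2 of 57, Cycs higher and Ndufaf7 lower, against 17.8% of all probes. Of the 57 members 43 had a difference below 0, and the median log2 difference was -0.23, against 0.06 for all probes tested. The median of the 57 was -0.25 within set A and -0.09 within set B. For the 43 members with a mean log2 intensity of at least 4 the median was -0.22, with 32 below 0. For all 1298 probes at that level it was 0.10, with 43.3% below 0.

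Poly(I:C) was compared with the same untreated arrays and gave values of like size. Ndufaf7 alone was called without a block, and was lower, where 8.92% of all probes were called. The fit with the block called Cycs (higher), Ndufaf7 and Cox7a2l (both lower), against 18.8% of all probes. The median of the 57 members was -0.18 with 41 members below 0, against 0.10 for all probes tested. It was -0.19 within set A and -0.16 within set B. For the 43 members with a mean log2 intensity of at least 4 the median was -0.18, with 30 below 0. For all 1298 probes at that level it was 0.22, with 36.1% below 0. Between poly(I:C) and LPS themselves no member was called in either fit and none had an unadjusted p under 0.05 (all probes 0.0105% called, 0.0211% with the array set as a block, and 0.548% and 3.14% at the unadjusted p). The members' differences between the ligands ran from -0.60 to 0.66 with a median of 0.06.

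Quantile normalization lowered the median of all probes from 0.06 to -0.08 for LPS and from 0.10 to -0.08 for poly(I:C). Under it the members' medians were -0.47 and -0.59, so their distance below the other probes was larger with that scaling. All 12 stimulated arrays against the 2 untreated ones gave a median of -0.33 (48 of 57 below 0, all probes 0.10). It was -0.60 within set A, -0.08 within set B and -0.16 with the 3 parts A1, A2 and B as a block. At a mean log2 intensity of at least 4 the median was -0.33 for the 43 members and 0.05 for all 1298 probes.

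**Figure D1:**
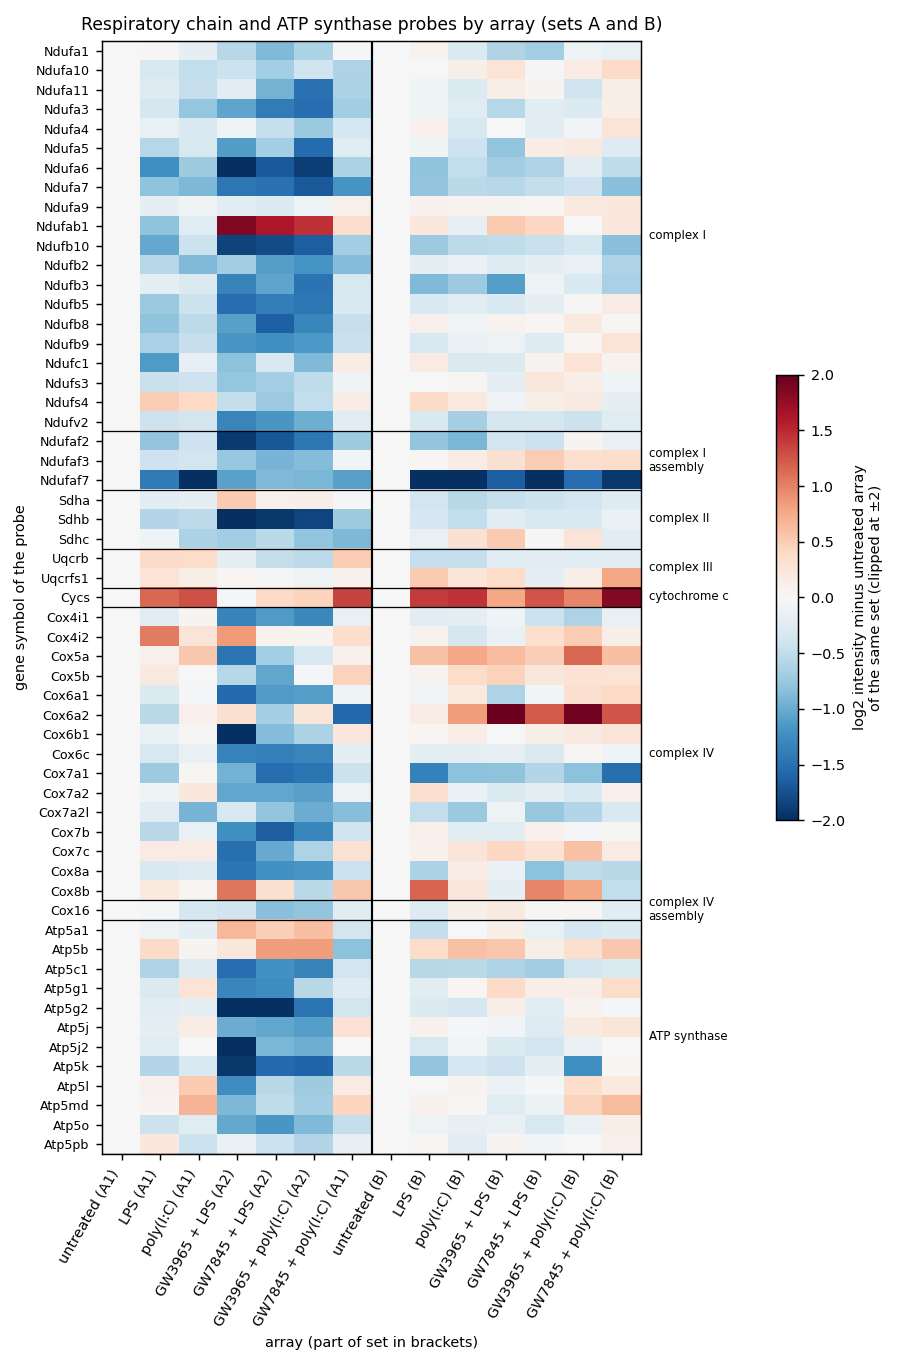
Log2 intensity of each of the 57 probes (rows, grouped by complex) on each array (columns) minus the untreated array of the same set, with set A on the left and set B on the right; colours are clipped at 2 in either direction. Cycs is above the untreated array on nearly all arrays and Ndufaf7 below it on all, while the 3 arrays of part A2 are pale to dark blue for most other members. On their set B counterparts the other members lie on both sides of the untreated array, with many below it.

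Complex I, the NADH dehydrogenase, had most of its subunits slightly below untreated cells after both ligands. Of the 20 subunits 18 lay below untreated cells after LPS (median -0.34) and 19 after poly(I:C) (median -0.32), though none was called in either comparison in either fit. Under quantile normalization the counts were 19 and 20. Of all probes tested 46.2% lay below 0 after LPS and 44.4% after poly(I:C). Of the 1298 probes with a mean log2 intensity of at least 4, 43.3% and 36.1% did. In both sets at once 13 of the 20 were below 0 after LPS and 16 after poly(I:C), against 33.7% and 31.4% of all probes.

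The lowest of these after LPS was Ndufa6, an accessory subunit that docks the mitochondrial acyl carrier protein on complex I. Its log2 intensities were 7.58 and 5.91 untreated, 6.36 and 5.11 with LPS, and 6.88 and 5.42 with poly(I:C), giving the set A array before the set B array. With GW3965 + LPS it was at 5.51 and 5.22, with GW7845 + LPS at 5.90 and 5.30, with GW3965 + poly(I:C) at 5.70 on both arrays, and with GW7845 + poly(I:C) at 6.94 and 5.40. Each stimulated array lay below the untreated array of its own set, while the groups overlapped across sets. The difference was -1.01 for LPS (SE 0.66; limma adjusted p = 0.525, and 0.0825 with the array set as a block) and -0.60 for poly(I:C) (SE 0.66; adjusted p = 0.827 and 0.331). Over the 6 stimulated groups it was -0.96 (SE 0.50; adjusted p = 0.285), and called with the array set as a block (adjusted p = 0.0235), a call lost without the untreated array of set A (adjusted p = 0.476).

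Ndufa7, an accessory subunit of the matrix arm, gave 6.70 and 5.80 on the untreated arrays, 5.89 and 5.01 with LPS and 5.79 and 5.26 with poly(I:C). On the 8 arrays with an agonist it was between 4.96 and 5.53. Every stimulated array lay below its set's untreated array, and the poly(I:C) arrays lay below both untreated arrays. The difference was -0.80 (SE 0.41) for LPS, -0.72 (SE 0.41) for poly(I:C) and -0.93 (SE 0.32) over the 6 stimulated groups, with limma adjusted p of 0.365, 0.427 and 0.0753 without a block. With the array set as a block these were 0.0997, 0.137 and 0.0101, and only the last was a call, which was lost without the untreated array of set A (0.307). Ndufa7 was also called after both ligands under quantile normalization and with the 3 parts A1, A2 and B as a block (adjusted p = 0.0232 and 0.00907 for poly(I:C)).

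Ndufb10, an accessory subunit of the membrane arm, was at 7.18 and 5.48 untreated, 6.16 and 4.75 with LPS, and 6.74 and 4.96 with poly(I:C). The differences were -0.87 (SE 0.72) and -0.48 (SE 0.72), neither called. Over the 6 stimulated groups it was -0.90 (SE 0.55; limma adjusted p = 0.392 without a block and 0.0398 with the array set as a block). That call was lost without either untreated array (adjusted p = 0.506 for set A and 0.0669 for set B), and without the LPS or poly(I:C) array of set B or any of the 3 A2 arrays (0.0512 to 0.0633). The set A array was the higher in all 7 groups, and the groups overlapped across sets.

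Ndufs4, an accessory subunit needed to attach the NADH-oxidising module, was above untreated cells after both ligands, the one subunit of the 20 that was, at 5.01 and 4.22 untreated, 5.53 and 4.59 with LPS and 5.42 and 4.42 with poly(I:C). The difference was 0.44 for LPS (SE 0.48; limma adjusted p = 0.802) and 0.30 for poly(I:C) (SE 0.48; adjusted p = 0.919), and the interval for LPS was -0.58 to 1.47. The groups overlapped. Ndufa9 stayed close to its untreated level, with 5.71 and 5.02 untreated, 5.54 and 5.10 with LPS and 5.64 and 5.09 with poly(I:C). It was chosen after its values were seen. Ndufv2, an iron-sulfur protein of the NADH-oxidising module, was at 6.71 and 5.92 untreated and at 6.35 and 5.25 with poly(I:C) (difference -0.52, SE 0.45; limma adjusted p = 0.717), and passed in that comparison only under quantile normalization. Ndufb2, also chosen after its values were seen, was the complex I subunit whose untreated arrays both lay above all 12 stimulated arrays. It gave 4.21 and 3.66 untreated, against 3.03 to 3.52 on 11 stimulated arrays and 3.64 on the LPS array of set A. Its difference over the 6 stimulated groups was -0.57 (SE 0.26; limma adjusted p = 0.197, and 0.0653 with the array set as a block).

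The probe for Ndufab1, the mitochondrial acyl carrier protein, was dim, at -3.43 to -0.54, and lay above its array's 20th percentile on 10 of 14 arrays. It was higher on the A2 arrays (-1.16 to -0.77) than on the A1 arrays (-3.43 to -2.27), and between -1.23 and -0.54 in set B. Ndufa4, which the symbol places in complex I and which is now assigned to complex IV, ranged from 6.40 to 7.27 and differed by -0.03 for LPS (SE 0.37) and -0.31 for poly(I:C) (SE 0.37). The brightest subunit probe by mean, Ndufa1, was at 6.08 to 7.62. Brightness depends on the probe and does not rank the genes.

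The strongest decrease of all members after either ligand was in a complex I assembly factor. Ndufaf7 is a methyltransferase that acts during early assembly of complex I. Its log2 intensity was 1.15 and 1.18 on the untreated arrays, -0.27 and -0.87 with LPS, and -1.0 and -1.02 with poly(I:C), the set A array first. The untreated arrays lay above all 12 stimulated arrays, a separation that 7.60% of all probes showed in the same direction. With GW3965 it was at 0.07 and -0.46 under LPS and at 0.23 and -0.34 under poly(I:C), and with GW7845 at 0.26 and -1.12 under LPS and at 0.06 and -0.75 under poly(I:C).

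Poly(I:C) lowered Ndufaf7, with a log2 difference of -2.18 (SE 0.50, interval -3.26 to -1.09; limma adjusted p = 0.0129, and 0.000568 with the array set as a block). It was -2.15 within set A and -2.21 within set B. For LPS the difference of -1.74 (SE 0.50, interval -2.82 to -0.66) just missed the threshold without a block (adjusted p = 0.0504). There it passed with a floor at the 1st percentile (0.0481), an offset of 0.1 (0.0399) or a stricter filter (0.0410). It was not called there without a filter on low probes, without an intensity trend, with 1 probe for each symbol or with quantile normalization. With the block it passed (adjusted p = 0.00364). Within the sets Ndufaf7 differed by -1.42 and -2.06 after LPS. Over the 6 stimulated groups it fell by 1.60 (SE 0.38; adjusted p = 0.0123). Without a block, the poly(I:C) call was lost when either untreated or either poly(I:C) array was left out (adjusted p 0.0617 to 0.071), and the call over the 6 groups when either untreated array was (0.0993 and 0.112). With the array set as a block these 2 calls held without any 1 array, and the LPS call was lost without the untreated array of set B (adjusted p = 0.0642).

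Ndufaf2, a chaperone bound late in complex I assembly, was at 3.0 and 1.10 untreated, 2.21 and 0.31 with LPS, and 2.59 and 0.18 with poly(I:C). The difference was -0.79 in each set for LPS and -0.41 and -0.92 for poly(I:C), and neither comparison was called (SE 0.81; limma adjusted p = 0.786 and 0.862). Ndufaf3, which acts early in assembly, differed by -0.19 and -0.12 (SE 0.49), with the sets on opposite sides of 0 in both. In a list of 15 assembly factors, 14 of them outside the symbol rule and 1 a member (Atp5md), none was called after LPS and 1 after poly(I:C) without a block. That gene was Nubpl, which inserts iron-sulfur clusters into complex I, at -1.32 (SE 0.37; limma adjusted p = 0.0382). Bcs1l, which loads the Rieske protein into complex III, and Nubpl were called lower with the array set as a block after both ligands. Of all probes 7.90% and 8.92% were called without a block after LPS and poly(I:C), and 17.8% and 18.8% with it. The list was not tested against these shares.

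**Figure D2:**
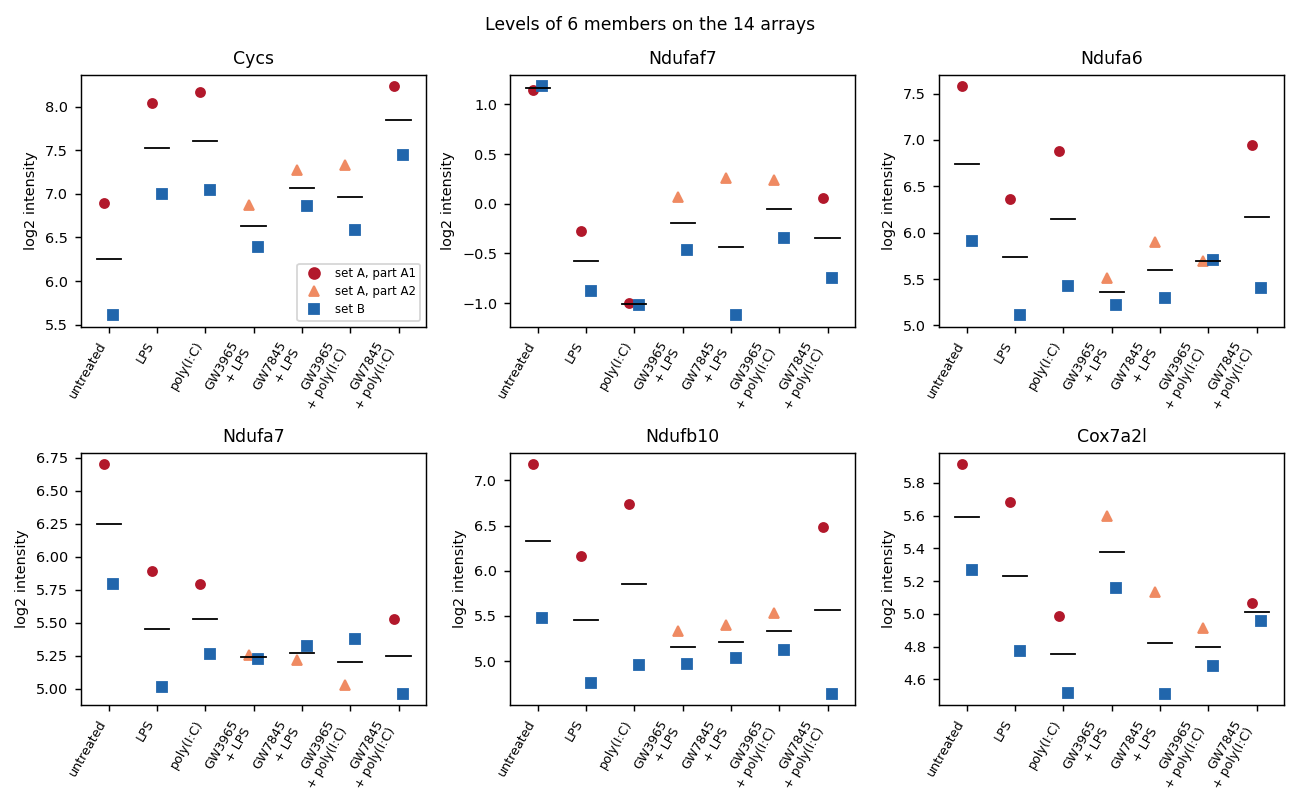
Log2 intensity of 6 members on the 14 arrays (vertical axes) by group (horizontal axes); points are single arrays, red circles part A1, orange triangles part A2 and blue squares set B, and the line is the group mean of 2 arrays. Cycs is lowest on the untreated array of set B, Ndufaf7 is highest on both untreated arrays, and for Ndufa6 and Ndufb10 the arrays of set A lie on average 0.97 and 1.12 above those of set B.

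Complex II, succinate dehydrogenase, is at once a respiratory complex and an enzyme of the tricarboxylic acid cycle. All 3 measured subunits lay below untreated cells after both ligands and none was called. The flavoprotein Sdha was at 5.62 and 6.07 untreated, 5.41 and 5.69 with LPS, and 5.43 and 5.53 with poly(I:C). The iron-sulfur subunit Sdhb was at 6.05 and 4.58 untreated, 5.47 and 4.24 with LPS, and 5.53 and 4.09 with poly(I:C). Differences for LPS and poly(I:C) were -0.29 and -0.37 for Sdha (SE 0.33), -0.46 and -0.51 for Sdhb (SE 0.57), and -0.12 and -0.16 for the membrane anchor Sdhc (SE 0.37). Both poly(I:C) arrays lay below both untreated arrays for Sdha only.

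Complex III was represented by Uqcrb and by Uqcrfs1, the Rieske iron-sulfur protein. Uqcrb was at 7.70 and 7.31 untreated, 8.08 and 6.85 with LPS, and 8.06 and 6.84 with poly(I:C), so that set A was higher and set B lower after each ligand. Uqcrfs1 was at 5.25 and 4.59 untreated, 5.52 and 5.11 with LPS, and 5.37 and 4.84 with poly(I:C). It differed by 0.40 (SE 0.39; limma adjusted p = 0.769) and 0.18 (SE 0.39; adjusted p = 0.946), above 0 in both sets each time.

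Cytochrome c, the soluble electron carrier between complexes III and IV and a trigger of apoptosis when released from mitochondria, had the largest difference above 0 of all members after each ligand. Cycs was at 6.89 and 5.61 untreated, 8.04 and 7.0 with LPS, and 8.17 and 7.05 with poly(I:C). With GW3965 it was at 6.87 and 6.39 under LPS and 7.33 and 6.59 under poly(I:C). With GW7845 it was at 7.27 and 6.86 under LPS and 8.24 and 7.45 under poly(I:C). Both arrays of either ligand alone lay above both untreated arrays. In set B all 6 stimulated arrays were above the untreated array, and in set A all but the GW3965 + LPS array, which was level with it.

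LPS differed from untreated by 1.27 (SE 0.55, interval 0.09 to 2.46) and poly(I:C) by 1.36 (SE 0.55, interval 0.18 to 2.54). Without a block neither was called (limma adjusted p = 0.234 and 0.179), and with the array set as a block both were (0.00365 and 0.00202). The within-set differences were 1.15 and 1.39 for LPS and 1.28 and 1.44 for poly(I:C). With the block, the LPS call was lost without the untreated array of set B (adjusted p = 0.0611) or the LPS array of set A (0.0575), and the poly(I:C) call held without any 1 array. Under quantile normalization the differences were 0.88 for LPS and 0.84 for poly(I:C), neither called. Over the 6 stimulated groups the difference under it was 0.78, which was called (limma adjusted p = 0.0393). With the deposited scaling the difference over the 6 groups was 1.02 (SE 0.42; adjusted p = 0.149, and 0.00171 with the block). The latter call was lost without the untreated array of set B (0.0776).

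Complex IV, cytochrome c oxidase, was mixed, and its direction depended on the scaling. Of its 15 subunits 9 lay below 0 after LPS (median -0.17) and 7 after poly(I:C) (median 0.04), but 12 and 13 under quantile normalization (medians -0.36 and -0.36). The subunit called was Cox7a2l, also known as SCAF1, which joins complexes III and IV into supercomplexes and of which C57BL/6 mice carry a shortened form. It was at 5.91 and 5.27 untreated, 5.68 and 4.78 with LPS, and 4.99 and 4.52 with poly(I:C). Both poly(I:C) arrays lay below both untreated arrays, by -0.84 (SE 0.40; limma adjusted p = 0.292, and 0.0272 with the array set as a block), while LPS differed by -0.36 (SE 0.40; adjusted p = 0.818 and 0.376). The poly(I:C) call was lost without any 1 of the 4 arrays compared (adjusted p 0.0762 to 0.169). The difference between the ligands was not called. Over the 6 stimulated groups Cox7a2l was at -0.59 (SE 0.31; adjusted p = 0.284, and 0.0316 with the block). This call was lost without either untreated array (0.308 and 0.106), the LPS array of set B (0.0583) or the poly(I:C) array of set A (0.0504).

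Cox5a, a subunit on the matrix side, was the highest after poly(I:C) apart from Cycs. It was at 4.65 and 2.90 untreated, 4.76 and 3.49 with LPS, and 5.19 and 3.68 with poly(I:C). Both sets were above 0 (0.54 and 0.78), but the groups overlapped. The difference of 0.66 (SE 0.64, limma adjusted p = 0.770, and 0.318 with the array set as a block) was called in neither fit. It was called only with the 3 parts A1, A2 and B as a block (adjusted p = 0.0418). Cox16, an assembly factor for the catalytic core, was at 4.35 and 3.86 untreated, 4.34 and 3.60 with LPS and 4.01 and 3.98 with poly(I:C), with no call.

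Complex IV has paired isoforms that differ between tissues. The forms found in most tissues had bright probes: Cox4i1 at 6.16 to 7.98, Cox6a1 at 7.05 to 9.18, Cox7a2 at 6.25 to 8.17 and Cox8a at 3.64 to 5.38. They differed by between -0.47 (Cox8a, SE 0.49) and 0.12 (Cox7a2, SE 0.64) after LPS and by between -0.06 and 0.09 after poly(I:C). The isoforms known from heart and skeletal muscle, Cox6a2, Cox7a1 and Cox8b, were at -1.35 to 0.80, -2.05 to 0.40 and -3.78 to -0.91. Cox4i2, known from lung and induced by low oxygen in other cells, was at -3.07 to -1.07. The Cox8b probe was above its array's 20th percentile on 10 arrays and the Cox4i2 probe on 12, so they were near the dim end of these arrays in all groups.

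Some of these dim isoforms stood among the largest differences after LPS without a call: Cox7a1 at -1.04 (SE 0.75), Cox8b at 0.68 (SE 0.95) and Cox4i2 at 0.56 (SE 0.78), with limma adjusted p of 0.603, 0.894 and 0.893. After poly(I:C) Cox6a2 differed by 0.47 (SE 0.61; adjusted p = 0.876). The Cox4i2 difference was 1.04 within set A and 0.08 within set B.

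The ATP synthase also depended on the scaling: 8 of 12 subunits were below 0 after LPS (median -0.25) and 7 after poly(I:C) (median -0.05), but 11 and 11 under quantile normalization. None was called after either ligand in either fit. The central stalk subunit Atp5c1 was at 5.90 and 4.40 untreated, 5.29 and 3.84 with LPS, and 5.65 and 3.86 with poly(I:C). Every stimulated array lay below the untreated array of its set. Over the 6 groups its difference was -0.70 (SE 0.53; limma adjusted p = 0.541, and 0.0430 with the array set as a block). The call was lost without either untreated array (0.433 for set A and 0.0976 for set B), either LPS array, the poly(I:C) or GW7845 + poly(I:C) array of set B, or any of the 3 A2 arrays (0.0516 to 0.0717).

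The catalytic subunit Atp5b lay on the other side without a call. It was at 3.97 and 3.88 untreated, 4.35 and 4.24 with LPS, and 4.01 and 4.47 with poly(I:C), a difference of 0.37 and 0.32 (SE 0.43; limma adjusted p = 0.837 and 0.890). Both arrays of each ligand were above both untreated arrays, as were 21.4% of all probes after LPS and 20.4% after poly(I:C). Atp5md, a small membrane subunit linked to dimers of the enzyme, was at 7.02 and 5.83 untreated and at 7.70 and 5.86 with poly(I:C), so that its 0.36 (SE 0.62) came from set A, and under quantile normalization it was -0.064. The oligomycin-sensitivity subunit Atp5o was at 7.52 and 6.32 untreated, 7.09 and 6.22 with LPS, and 7.27 and 6.15 with poly(I:C), below its set's untreated array in each case.

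Counted over the whole list, 4 members lay higher on both LPS arrays than on both untreated arrays (Cycs, Atp5b, Atp5pb and Cox5b) and 2 lower (Ndufaf7 and Ndufb2), where 21.4% and 18.1% of all probes did. For poly(I:C) 2 lay higher (Cycs and Atp5b) and 6 lower (Ndufaf7, Ndufa7, Ndufb2, Cox7a2l, Sdha and the peripheral stalk subunit Atp5pb), where 20.4% and 16.9% did. In the test for any difference among the 7 groups no member was called without a block (limma F test; all probes 5.33%), and 1 of 57 had an unadjusted p under 0.05 (all probes 11.9%). Cycs and Ndufaf7 were called with the array set as a block (all probes 14.1%). Over the 6 stimulated groups together 1 member was called without a block (12.7% of all probes) and 7 with it (25.5%): Cycs higher, and Ndufaf7, Ndufa6, Ndufa7, Ndufb10, Atp5c1 and Cox7a2l lower. In bulk RNA, fewer cells of a type and less RNA per cell cannot be told apart.

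**Figure D3:**
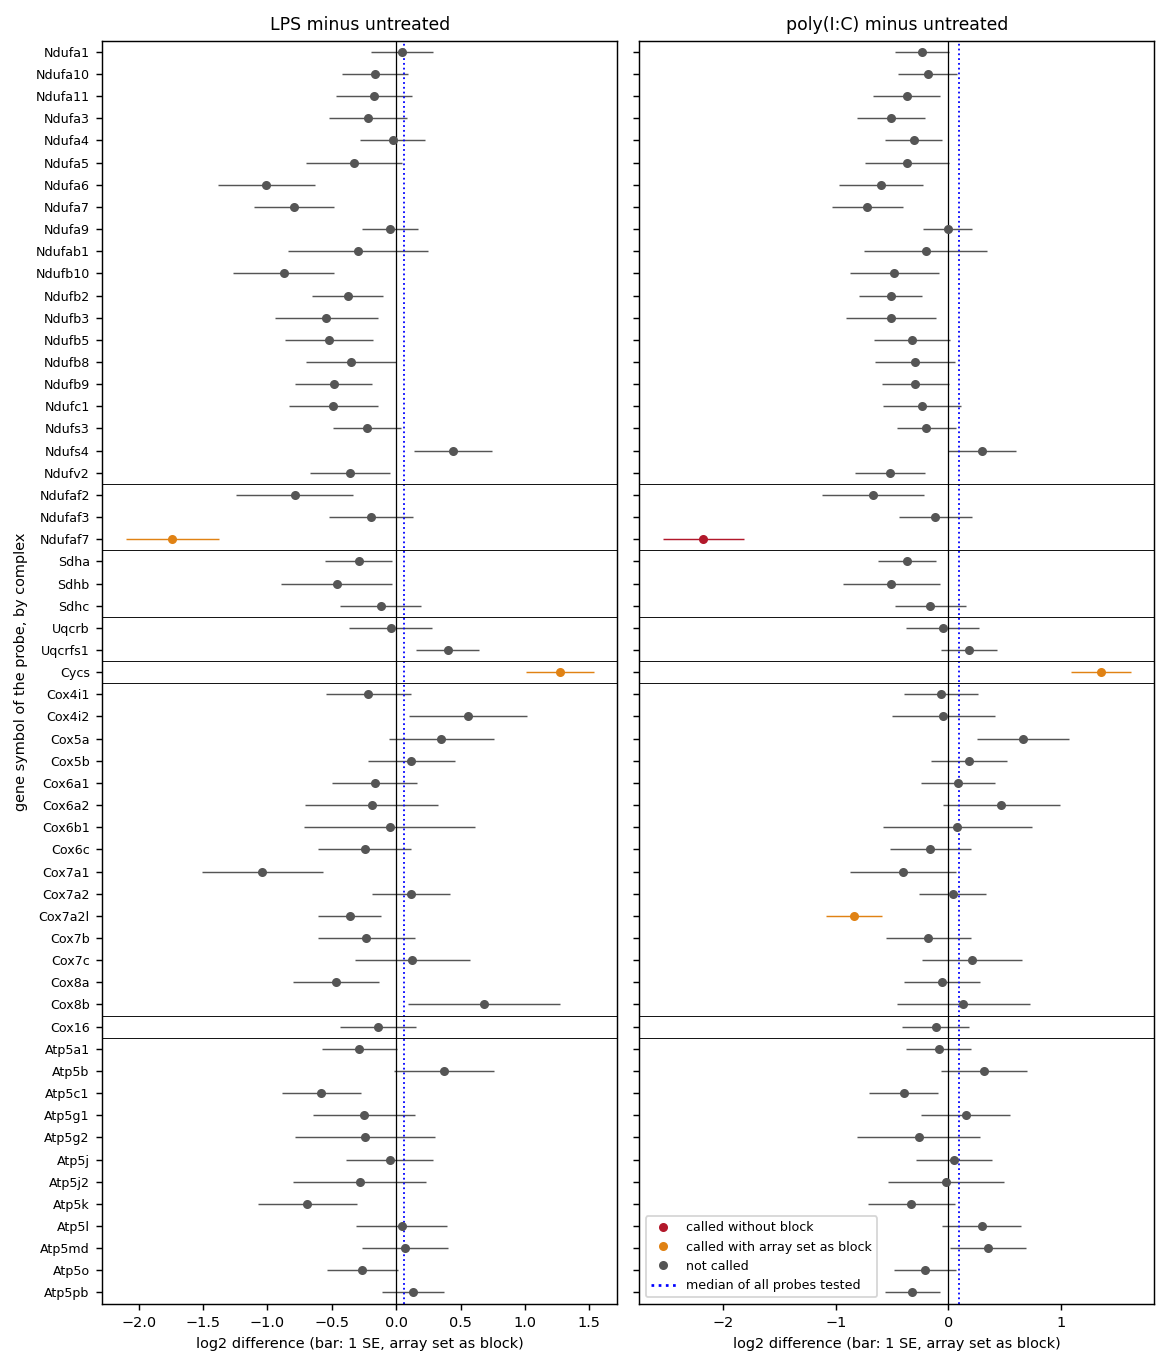
Log2 difference of LPS (left) and poly(I:C) (right) from untreated cells for the 57 members by complex; points are differences of means of 2 arrays, bars are 1 SE from the fit with the array set as a block, and the dotted line is the median of all probes tested. Most complex I subunits lie left of 0 with bars that cross or come near it, Cycs stands furthest right and Ndufaf7 furthest left.

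Neither agonist gave a call among the 57 members. For GW3965 with LPS against LPS 2 members had an unadjusted p under 0.05 (limma; all probes 3.14%, and 0.0316% called). For GW7845 with LPS, GW3965 with poly(I:C) and GW7845 with poly(I:C) the number was 0 (all probes 1.44%, 1.50% and 0.854% at the unadjusted p, and 0, 0.0105% and 0 called). No member was called with the array set as a block either, against 0.411%, 0, 0.0738% and 0 of all probes. In that fit 10, 4, 6 and 0 members had an unadjusted p under 0.05 in these 4 comparisons, against 9.81%, 5.97%, 6.22% and 3.78% of all probes. With the effects pooled over both ligands no member was called for GW3965 (all probes 0.200%, and 1.16% with the block) or GW7845 (0, and 0.0105%), and 1 and 0 members had an unadjusted p under 0.05 (all probes 4.53% and 1.70%). With the block these were 18 and 2 of 57 (all probes 13.5% and 5.73%). Whether an agonist's effect differed between the ligands was tested too, and gave 0 calls among all probes in either fit and no member at an unadjusted p under 0.05 for either agonist without a block (all probes 0.306% for GW3965 and 0.485% for GW7845), and 0 and 2 members with it (2.87% and 2.94%).

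The medians of the members after an agonist followed the parts of set A. They were -0.31 for GW3965 + LPS, -0.31 for GW7845 + LPS and -0.30 for GW3965 + poly(I:C), with 45, 48 and 45 of 57 members below 0, and 0.07 for GW7845 + poly(I:C). Within set A these were -0.63, -0.73, -0.78 and -0.02, and within set B 0.01, -0.01, 0.17 and 0.23. In set A the 3 low comparisons set an A2 array against an A1 array, and the fourth lies within A1, as do the comparisons of LPS and poly(I:C) with untreated cells. Over all 1298 probes with a mean log2 intensity of at least 4 the medians were -0.39, -0.40, -0.42 and -0.09 in set A and between -0.07 and 0.03 in set B. With the 3 parts as a block the members' medians were 0.05, 0.05, 0.10 and 0.07. Part A2 holds only arrays with an agonist, so this block also takes up any shift that those arrays share. These medians therefore cannot separate the parts of set A from the agonists.

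**Figure D4:**
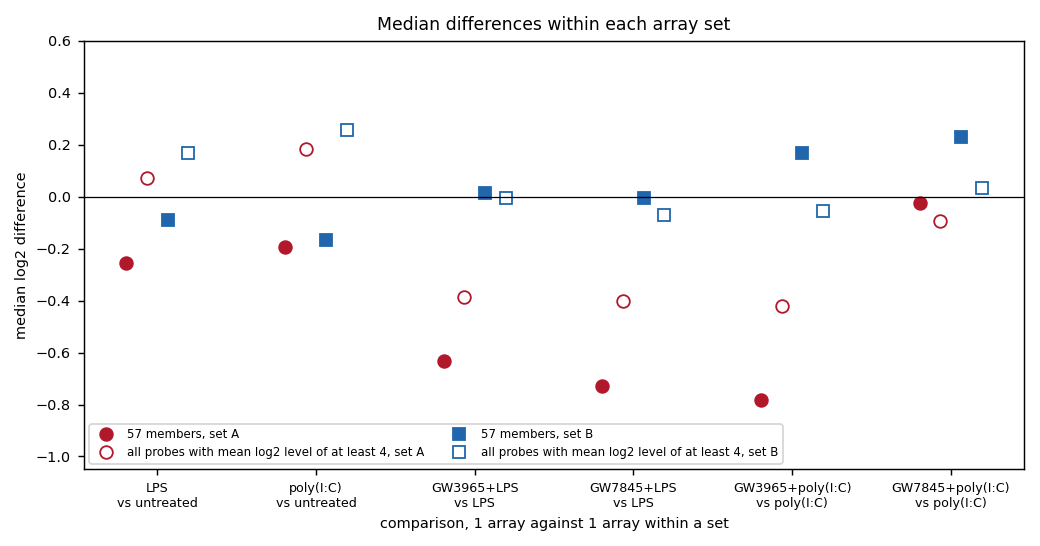
Median log2 difference (vertical axis) over the 57 members (filled) and over all 1298 probes with a mean log2 intensity of at least 4 (open) within set A (red circles) and set B (blue squares) for 6 comparisons (horizontal axis). The 3 comparisons that cross the parts of set A lie at -0.63 to -0.78 for the members in set A and near or above 0 in set B, and the bright probes as a whole shift with them.

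Cycs and Ndufaf7 were followed under the agonists because both were called with the ligands. The ligand arrays behind that choice are also the reference here. A shift back toward untreated cells can therefore follow from the choice alone, which was not tested. Cycs with GW3965 was -0.89 from LPS (SE 0.55, interval -2.08 to 0.29) and -0.65 from poly(I:C) (SE 0.55, interval -1.83 to 0.54), below 0 in both sets each time (-1.17 and -0.61, -0.84 and -0.46). Pooled over the ligands this was -0.77 (SE 0.39; limma adjusted p = 0.999, and 0.0682 with the array set as a block), with no call. With GW7845 it was -0.45 under LPS (interval -1.64 to 0.73) and 0.23 under poly(I:C) (interval -0.95 to 1.42). Ndufaf7 was 0.38 (interval -0.71 to 1.46) and 0.95 (interval -0.13 to 2.04) with GW3965 and 0.14 (interval -0.94 to 1.22) and 0.66 (interval -0.42 to 1.75) with GW7845, none called. Both arrays of either agonist with poly(I:C) lay above both arrays of poly(I:C) alone for Ndufaf7, as for 8.34% of all probes with GW3965 and 6.68% with GW7845.

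Some of the other large agonist differences rested on 1 array or on set A. On the GW3965 + LPS array of set A, Cox6b1, a complex IV subunit facing the intermembrane space, was at 3.56 against 5.85 to 7.57 on the other 13 arrays, and Atp5j2, a membrane subunit of the ATP synthase, at 4.67 against 5.86 to 7.68. Their differences from LPS were -1.85 (SE 0.77) and -1.36 (SE 0.72), with -3.64 and -2.76 in set A but -0.05 and 0.04 in set B. Ndufab1 was 1.49 with GW3965 + LPS, 1.32 with GW7845 + LPS and 0.93 with GW3965 + poly(I:C) (SE 0.85 each), of which set B showed 0.31, 0.22 and 0.15.

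Ndufa1 with GW7845 + LPS was alike in both sets, at -0.90 and -0.76 (difference -0.83, SE 0.51). Cox6a2 with GW3965 + LPS was at 0.83 and 1.81 within the sets (difference 1.32, SE 0.61), at log2 intensities of 0.80 and 0.62 against -0.04 and -1.19 with LPS. Under GW3965 + poly(I:C) Atp5k was -1.09 (SE 0.78) and Cox4i1 -0.89 (SE 0.58). Atp5g2 with GW7845 + LPS was -0.90 (SE 0.94), with -1.86 in set A and 0.06 in set B. None of these was called (limma, adjusted p over all 9486 probes, in either fit).

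Other mitochondrial gene lists give the members a setting. The 48 mitochondrial ribosomal proteins, which serve translation of the mitochondrially encoded subunits, had medians of -0.25 and -0.26 after LPS and poly(I:C) with no call without a block, close to the members' -0.23 and -0.18. With the array set as a block 1 was higher and 1 lower after LPS (Mrpl45 and Mrpl34), and 2 were lower after poly(I:C) (Mrpl34 and Mrpl42). In that fit 17.8% and 18.8% of all probes were called. The 19 probes for mitochondrial import had medians of -0.07 and 0.08 and no call without a block.

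Regulators of respiratory gene transcription held calls in both directions. Gabpb1, a subunit of the factor GABP that binds promoters of many respiratory genes, rose by 1.68 (SE 0.36; limma adjusted p = 0.00827) and 1.56 (SE 0.36; adjusted p = 0.0124) after LPS and poly(I:C). Its partner Gabpa was at 1.16 and 1.06 (SE 0.52), called only with the array set as a block (adjusted p = 0.0128 and 0.0194). Ppargc1b, a coactivator of mitochondrial biogenesis, fell by 1.91 after LPS (SE 0.53; adjusted p = 0.0427) and was at -0.99 after poly(I:C) (SE 0.53; adjusted p = 0.377). Tfam, the packaging factor of mitochondrial DNA, was at 0.01 and 0.23 (SE 0.49), and the probes for Nrf1 and Ppargc1a were above their array's 20th percentile on only 11 and 6 arrays. Tfb2m, which starts mitochondrial transcription, was at -0.93 after LPS and fell by 1.53 after poly(I:C) (SE 0.41; adjusted p = 0.0308). Of 16 such regulators 1 rose and 1 fell after each ligand, where 7.90% of all probes were called after LPS and 8.92% after poly(I:C). The list was not tested against that share.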

How the data were processed

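Gene expression was measured on 14 one-colour arrays (biotin-labelled RNA made from 0.5 µg total RNA, per the labels' protocols), 2 for each of 7 groups. The deposited values are intensities on a linear scale, which the authors scaled so that each array's median is 1.00 to 1.00072, as read from the values. No source used here gives the scanner, the background correction or the scaling method. Between 0.0903% and 0.421% of values per array were at or below 0. Lower intensities were set to the 5th percentile of the positive ones (log2 -3.87; no member value lay on it) and log2-transformed. Tested probes had a value on all arrays and exceeded their array's 20th percentile on at least 2. limma 3.58.1 (R 4.3.3) fitted 7 group means to all 14 arrays, with an intensity trend, two-sided, and adjusted p-values after Benjamini-Hochberg over 9486 probes. Residual degrees of freedom were 7 without a block, 6 with the array set and 5 with its 3 parts. Intervals are 95% and unadjusted. The number of arrays limits the precision. The fit was tested on simulated data.

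Gene symbols are those of the platform annotation: 8983 probes had 1 symbol, 1 several and 1028 none. All 57 members matched RefSeq. The array set was read from the 10th percentile of each array and, in addition, from 29 probes missing throughout set A and 30 throughout set B. The labels name no batch. Named members were those called in either fit, the 4 highest and 4 lowest after each ligand, the 2 highest and 2 lowest after each agonist, tissue isoforms, assembly factors and the brightest and dimmest of each complex. The members and lists were chosen with earlier results of these data known. Alternatives were another floor or offset, filters, quantile normalization, blocks and leaving out each array. The split of set A, its block, the leave-out fits with a block and the added motifs were chosen after seeing the data.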

Additional observations from a re-analysis of the deposited data

How the results depend on the processing

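With 2 arrays a group and sets that differ in brightness, the number of members called depended on the block. For LPS against untreated it was 0, but 2 with the array set as a block, 2 with the replicate number as a block, 8 with the set in 3 parts as a block (chosen after seeing the data; Cycs higher, Atp5c1, Cox7a1, Ndufa6, Ndufa7, Ndufaf2, Ndufaf7 and Ndufb10 lower), and 1 with quantile normalization (Ndufa7), a floor at the 1st percentile, an offset of 0.1 or a stricter filter (Ndufaf7 each). For poly(I:C) it was 1, but 3, 2 and 6 with those blocks and 4 with quantile normalization. For the 6 stimulated groups it was 1, but 7, 3 and 8 with the blocks and 8 with quantile normalization. For any difference among the 7 groups it was 0, but 2 and 6 with the array set and its 3 parts. With the array set as a block the share of all probes called rose too. It went from 7.90% to 17.8% for LPS and from 8.92% to 18.8% for poly(I:C). For the 6 groups it went from 12.7% to 25.5%, and for any difference from 5.33% to 14.1%. Shares under the other settings are not given here, so those counts are not a result about the members. Replicate numbers followed the array set in every group but GW7845 + LPS, whose numbers cross it. Same-numbered deviations correlated at 0.354 to 0.674 for 15 pairs of groups and at -0.540 to -0.391 for the 6 pairs with GW7845 + LPS. Deviations from a mean of 2 arrays are mirror images, so these values largely restate the set. They cannot show whether equal numbers share a preparation.

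Leaving out 1 array at a time gave 0 to 2 calls for LPS, 0 to 3 for poly(I:C), 0 to 13 for the 6 groups (with the block 5 without the poly(I:C) array of set B or any A2 array, 9 without the GW7845 + LPS or GW3965 + poly(I:C) array of set B, and 2, 4, 6, 7, 8 or 13 otherwise), 0 to 6 for any difference, 0 to 2 for GW3965 + LPS, 0 to 4 for GW3965 pooled and 0 to 1 for the difference of the GW3965 effects, counting fits with and without the block. The 13, 6, 2, 4 and 1 arose without the GW3965 + LPS array of set B, with the block, which leaves that group to the array of set A with the low Cox6b1 and Atp5j2 values. A lone array is assumed to vary like the other groups. Shares of all probes in these fits are not given here, so these counts are not a result about the members.

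The median over members moved by more than the pooled SD of the array medians (0.356) in these cases: -0.59 for poly(I:C) with quantile normalization; -0.73 for GW7845 + LPS within set A; -0.78, 0.17 and 0.10 for GW3965 + poly(I:C) within sets A and B and with the 3 parts; and -0.73, 0.099 and 0.095 for GW3965 pooled. Without a block, leaving out an array also unbalances the sets, and the medians then ran from -0.79 to 0.30 for LPS, -0.69 to 0.38 for poly(I:C), -0.49 to 0.62 between the ligands, -0.92 to 0.15 for the 6 groups, -0.90 to 0.16 and -0.92 to 0.17 for GW3965 and GW7845 with LPS, -0.93 to 0.27 and -0.53 to 0.63 with poly(I:C), and -0.62 to -0.05 and -0.39 to 0.16 pooled.

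No member called without a block or with the array set as a block changed direction in these fits, except Atp5c1 over the 6 groups (below). Cox5a after poly(I:C), called only with the 3 parts as a block, did change and is listed next. Members called in neither fit that did were Atp5md after poly(I:C) (-0.064 with quantile normalization, and -0.57 to 1.28 over left-out arrays) and Atp5g2 with GW7845 + LPS (0.069 with the 3 parts, and -2.09 to 0.29). Over left-out arrays these also did: Cox4i2 (-0.24 to 1.35) and Ndufs4 (-0.022 to 0.91) after LPS; Cox5a (-0.21 to 1.53), Cox6a2 (-0.45 to 1.39) and Ndufaf2 (-1.87 to 0.54) after poly(I:C); Cox6a2 (-0.10 to 1.05) with GW7845 + LPS; Cox7a1 (-1.57 to 0.45) and Ndufab1 (-0.33 to 1.31) with GW7845 + poly(I:C). Atp5c1 over the 6 groups, called only with the block, was at -1.45 to 0.051 without it and at -0.88 to -0.51 with it.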

Other observations

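Genes of carbon metabolism are given beside all probes tested, of which 7.90% were called after LPS and 8.92% after poly(I:C) in either direction. No list was tested against that share. Of 15 probes for the tricarboxylic acid cycle 1 fell after LPS and 2 after poly(I:C), and none rose (limma, without a block). Their medians were -0.36 and -0.43. With the array set as a block 5 were called lower after each ligand, where 17.8% and 18.8% of all probes were called. Idh1, which makes NADPH in the cytosol, fell by 2.66 (SE 0.51; adjusted p = 0.00385) after LPS and by 2.64 (SE 0.51; adjusted p = 0.00358) after poly(I:C), and Aco1 by 1.15 after poly(I:C) (SE 0.33; adjusted p = 0.0446); both encode the cytosolic forms. The mitochondrial Idh3g was at -1.11 and -1.04 (SE 0.61), called only with the array set as a block (adjusted p = 0.00913 and 0.0131). Of 12 probes for fatty acid oxidation 1 fell after LPS and 3 after poly(I:C), with medians of -1.01 and -0.84: Hadh by 1.76 and 1.78 (SE 0.44; adjusted p = 0.0222 and 0.0188), and after poly(I:C) Acaa2 by 1.83 (SE 0.52; adjusted p = 0.0410) and Echs1 by 1.31 (SE 0.34; adjusted p = 0.0232).

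Of 19 glycolysis probes 2 rose and 1 fell after LPS, and 3 rose and 1 fell after poly(I:C), with medians of 0.04 and 0.14. The hexokinase Hk2 rose by 1.52 and 1.58 (SE 0.42; limma adjusted p = 0.0373 and 0.0279) and the phosphofructokinase Pfkp by 1.94 and 2.23 (SE 0.42; adjusted p = 0.00957 and 0.00336), while Pfkfb3 rose after poly(I:C) by 1.34 (SE 0.35; adjusted p = 0.0245). Eno3, the muscle enolase, fell by 2.04 and 1.63 (SE 0.39; adjusted p = 0.00422 and 0.0167). Hif1a, the hypoxia-inducible factor subunit, was at 1.76 after LPS (SE 0.53; adjusted p = 0.0609) and rose by 2.32 after poly(I:C) (SE 0.53; adjusted p = 0.0116), as did Vhl, which targets it for destruction, by 1.32 (SE 0.36; adjusted p = 0.0308). The mitochondrial superoxide dismutase Sod2 rose most of these lists, by 4.14 and 4.40 (SE 0.44; adjusted p = 2.72e-05 and 1.27e-05), and the mitochondrial thioredoxin reductase Txnrd2 fell after LPS by 1.54 (SE 0.38; adjusted p = 0.0214).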
